A study of Bos taurus with 8 samples.

Results

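ATP12A (ENSBTAG00000014486) and CA4 (ENSBTAG00000017969) are 2 of the 52 genes that the study listed under metabolic pathways, out of 27607 genes counted in bovine blastocysts. They were taken from that list by name, and the list itself was chosen by the difference in read counts between embryos of prepubertal and pubertal heifers. The difference between these groups is therefore given below as a description, without a p value. Both genes were among the 15513 genes that passed the low-count filter.

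ATP12A encodes the catalytic alpha subunit of the non-gastric H+/K+-ATPase. This P-type pump of the plasma membrane spends ATP to move protons out of the cell in exchange for potassium. CA4 encodes carbonic anhydrase IV, an enzyme held on the outer face of the plasma membrane by a lipid anchor, where it interconverts carbon dioxide and water with bicarbonate and a proton. Neither protein is part of the mitochondrial respiratory chain or of the mitochondrial ATP synthase, although pathway databases list the H+/K+-ATPases under oxidative phosphorylation. In the blastocyst, ion transport across the outer epithelium, the trophectoderm, is known for driving fluid into the blastocoel, and the control of pH depends on the exchange of protons and bicarbonate.

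RNA-Seq was performed on 8 libraries, each from total RNA of about 5 pooled blastocysts on day 7, with 4 libraries per group. The oocytes came by ovum pick-up from Polish Holstein-Friesian heifers. Prepubertal donors were younger than 10 months with no corpus luteum or dominant follicle, and pubertal donors, the control group, were older than 15 months and had one of these structures. All oocytes were matured and fertilized in vitro, with semen of the same bull, and only blastocysts of the better morphological grades were used. A pool averages embryos and all of their cell types, so fewer cells of a type and less RNA per cell cannot be told apart. The identity of the embryos could not be checked against lineage markers, since only the 52 listed genes are paired with names in the sources used here. The labels do not say whether the libraries came from separate cultures or donors. The permutation p values below take the libraries of a group as interchangeable, which could not be checked. They hold for these libraries only.

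Samples 1, 2, 3 and 8 were compared as prepubertal and samples 4, 5, 6 and 7 as pubertal, as in the supplementary tables of the study. The sample labels place sample 4 in the prepubertal and sample 8 in the pubertal group instead. Group levels are therefore also given for the labels' groups, and group levels, the covariation of the pair and the likeness to listed genes for the 6 libraries on which both sources coincide. The likeness to unnamed genes and the coefficients of variation use the groups of the tables alone. The reads counted on genes were 24828302, 24164077, 20112044 and 24831086 in samples 1, 2, 3 and 8, and 29549143, 27266940, 28098361 and 18510164 in samples 4, 5, 6 and 7. Samples 3 and 7 stood apart from the rest of their groups. Only 45.4% and 52.1% of their uniquely mapped reads were assigned to genes, against 57.9% to 63.6% in the other libraries, and reads fell on 24203 and 24044 genes, against 19503 to 20885.

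ATP12A was higher in every prepubertal than in every pubertal library. The unit used for levels is CPM, the reads of a gene for every 1000000 reads counted on genes in that library. The prepubertal samples 1, 2, 3 and 8 had 26.7, 24.9, 42.0 and 29.1 CPM of ATP12A, from 664, 602, 845 and 722 reads. The pubertal samples 4, 5, 6 and 7 had 19.4, 14.9, 15.7 and 21.2 CPM of ATP12A, from 573, 405, 441 and 392 reads. Sample 3 was the highest of all, and the nearest libraries of the 2 groups, samples 2 and 7, differed by a factor of 1.18. Over all 15513 genes tested, 2.93% had 4 pubertal libraries that all lay below the 4 prepubertal ones.

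ATP12A averaged 30.7 ± 7.74 CPM (SD, n = 4) over the prepubertal libraries and 17.8 ± 3.003 CPM (SD, n = 4) over the pubertal libraries, a ratio of 1.73. The medians, which weigh sample 3 less, were 27.9 and 17.5 CPM, a ratio of 1.59. In the edgeR fit over all genes, ATP12A had a log2 fold change (pubertal minus prepubertal) of -0.75, with a standard error of 0.16. It was -0.58 without sample 3. In the 6 libraries on which both sources coincide, the prepubertal range of 24.9 to 42.0 CPM also lay above the pubertal range of 14.9 to 21.2 CPM, as it did for 10.1% of all genes tested, and the log2 fold change was -0.80. By the groups of the sample labels the ranges overlapped, at 19.4 to 42.0 CPM for prepubertal and 14.9 to 29.1 CPM for pubertal, and the log2 fold change was -0.46.

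Sample 3 was highest in ATP12A on all 3 scales computed, by a lead that differed between them. Its level was 1.56 times the mean of samples 1, 2 and 8 in CPM. With TMM factors it stood at 40.1, against 27.2, 24.9 and 28.3 in samples 1, 2 and 8, or 1.49 times their mean. Scaled in the same way to uniquely mapped reads, an alternative added once the data had been seen, ATP12A stood at 19.1 in sample 3, against 16.0, 14.4 and 17.5 in samples 1, 2 and 8. It then lay at 1.19 times their mean. On this scale the pubertal samples 4, 5, 6 and 7 had 12.3, 9.41, 9.71 and 11.03. These again all lay below the prepubertal libraries, which held for 1.7% of the genes tested. The SD of the prepubertal group was 25.2% of its mean in CPM, 22.5% with TMM factors and 11.96% per uniquely mapped read, and the ratio of the group means was 1.58 on the last scale. Sample 3 also had the lowest share of reads assigned to genes, and the part of this share in its ATP12A level was not tested.

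CA4 was detected in all 8 libraries, at levels that differed widely within both groups. The prepubertal samples 1, 2, 3 and 8 had 1.17, 2.52, 2.88 and 12.2 CPM of CA4, from 29, 61, 58 and 304 reads. The pubertal samples 4, 5, 6 and 7 had 0.981, 0.293, 0.249 and 1.46 CPM of CA4, from 29, 8, 7 and 27 reads. Sample 8 held 56.2% of the CPM summed over the 8 libraries. The ranges of the groups overlapped, since sample 7 of the pubertal group exceeded sample 1 of the prepubertal group.

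At these depths not every neighbour in the order of CA4 can be told apart. The exact 95% Poisson interval, which covers counting error only, was 0.10 to 0.513 CPM in sample 6 and 0.127 to 0.578 CPM in sample 5. The intervals of samples 4 (0.657 to 1.41 CPM), 1 (0.782 to 1.68 CPM) and 7 (0.961 to 2.12 CPM) overlapped one another, as did those of samples 2 (1.93 to 3.24 CPM) and 3 (2.19 to 3.73 CPM). The interval of sample 8, 10.9 to 13.7 CPM, lay above all others. By these intervals, samples 5 and 6 lay lowest and sample 8 highest. Between them, samples 1 and 4 lay below samples 2 and 3. Sample 7 lay below sample 3, but its interval overlapped that of sample 2. The intervals take each read as independent and would be too narrow if some reads were copies of the same molecule.

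CA4 averaged 4.70 ± 5.08 CPM (SD, n = 4) over the prepubertal libraries and 0.746 ± 0.582 CPM (SD, n = 4) over the pubertal libraries, a ratio of 6.31. The SD of the prepubertal group exceeded its mean. The ratio of the medians, 2.70 and 0.637 CPM, was 4.24. The log2 fold change of CA4 (pubertal minus prepubertal) was -2.66, with a standard error of 0.73. Much of this size rested on sample 8, one of the libraries whose group is in conflict. Without it the prepubertal mean of CA4 was 2.19 ± 0.905 CPM (SD, n = 3), the ratio of the means was 2.94 and the log2 fold change was -1.54. By the sample labels, which move sample 8 to the pubertal group, the means were 1.89 CPM for prepubertal and 3.56 CPM for pubertal and the log2 fold change was 0.92, with the opposite sign. In the 6 libraries without conflict the levels were 1.17 to 2.88 CPM against 0.249 to 1.46 CPM and the log2 fold change was -1.73. Without samples 3 and 7, which had the low shares of assigned reads, the CA4 ranges no longer overlapped. The prepubertal range of 1.17 to 12.2 CPM then lay above the pubertal range of 0.249 to 0.981 CPM, as for 7.4% of the genes tested. This setting was chosen after the data were seen.

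**Figure D1:**
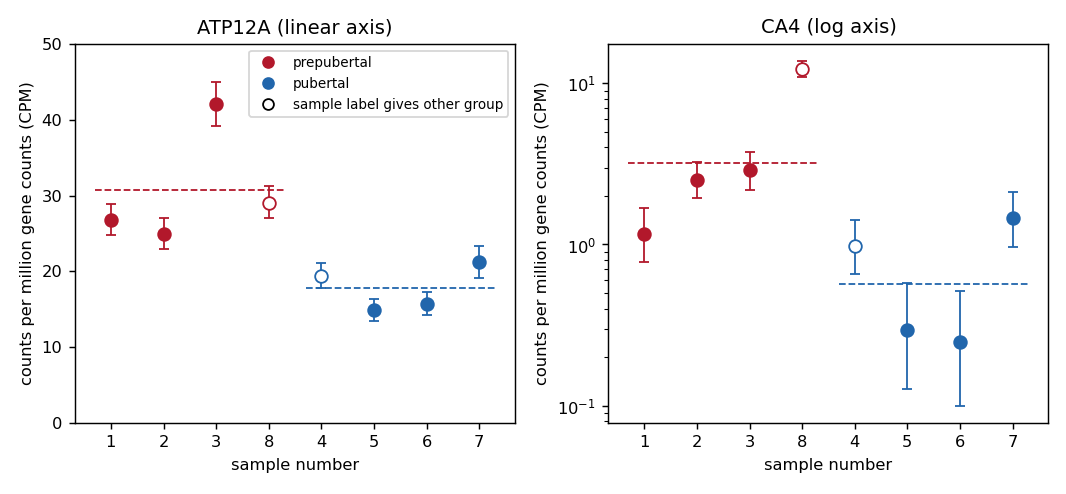
Levels of ATP12A (left, linear axis) and CA4 (right, log axis) in CPM for each of the 8 libraries, with exact 95% Poisson intervals. Open circles are samples 4 and 8, whose sample label gives the other group, and dashed lines are group means (arithmetic for ATP12A, geometric for CA4). ATP12A in the prepubertal libraries lies between 24.9 and 42.0 CPM and in the pubertal ones between 14.9 and 21.2 CPM, while CA4 in sample 8 stands at 12.2 CPM above all others.

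Sample 8 was set against the other libraries over all genes, to see how many stood out there as CA4 did. In it, 2 of the 15513 genes tested, CA4 and ENSBTAG00000047953, had a level at least 4 times that of the next library. In CA4 this factor was 4.25. The unnamed gene had 9.26 CPM in sample 8 and 1.99 CPM in the next library. The same count was 27 genes in sample 4, 2 in sample 3 and 0 in samples 1, 2, 5, 6 and 7. At a factor of 2, sample 3 had the most genes, 227, followed by sample 4, and sample 8 came next with 93. Sample 4, the other library in conflict, thus stood out in more genes than sample 8 at both factors. Of the 52 genes of the metabolic list, sample 8 was at least 2 times above the next library in CA4 and in ALAS2, the erythroid enzyme that begins haem synthesis. ALAS2 had 12.1 CPM in sample 8 and 1.504 to 5.84 CPM in the other libraries. Sample 8 also had the highest share of mapped reads at several loci, 17.2% against 11.5% to 15.04% in the other libraries.

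The spread between libraries of the same group was set beside that of other genes. The biological coefficient of variation that edgeR estimated within groups was 17.4% for ATP12A, against a median of 14.6% over the 1551 genes of most similar mean level, of which 294 were more variable. CA4 stood farther from genes of its own level, with 66.3%, against a median of 36.2%, and 18 of 1551 genes of like level were more variable. The place of both values among genes of like level depended on the libraries used, as settings added once the data were seen show. Without sample 8 that of CA4 was 54.1%, against a median of 38.8%, and 143 of 1597 genes were more variable. Without samples 3 and 7 that of ATP12A was 15.3%, against a median of 18.3%, and 1465 of 1525 genes were more variable.

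The covariation of the 2 genes was then examined across libraries. Within the pubertal group, samples 4 and 7 were above samples 5 and 6 in both genes, by a ratio of means of 1.33 for ATP12A and 4.50 for CA4. Within the prepubertal group, sample 3 led for ATP12A and sample 8 for CA4. Over all 8 libraries, log2 CPM of the pair gave Pearson's r = 0.772 and Spearman's rho = 0.881. Part of this correlation is fixed by the choice of both genes for their lower level in the pubertal group, so it has no test.

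With the mean of each group subtracted, r was 0.433 (exact permutation within groups, two-sided, p = 0.365, n = 8 libraries) and rho was 0.571 (exact permutation, p = 0.201). Neither value was past 0.05. The 6 libraries without conflict gave r = 0.681 (exact permutation, p = 0.194). With the group means of the sample labels subtracted instead, r was 0.812, but both genes were chosen on the tables' groups and these means leave 75% of the contrast between those groups in the values, so this r has no test. Without samples 3 and 7, the libraries farthest from the median of ATP12A after centring, r was 0.699 (exact permutation, p = 0.139), and without samples 3 and 5, the farthest before centring, it was 0.764. Without sample 3 alone it was 0.764 (exact permutation, p = 0.0694) and without sample 8 alone 0.701 (exact permutation, p = 0.104), and with both in the data it was lower. Leaving out any other single library brought r below 0.433, down to 0.295 without sample 7 (exact permutation, p = 0.618). Relative to the mean of their group, sample 3 was high in ATP12A but not in CA4, and sample 8 was high in CA4 but not in ATP12A. Across all tested genes, 31.4% of the 15512 others had an r with ATP12A as high as that of CA4, and 28.2% had an r with CA4 as high as that of ATP12A.

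**Figure D2:**
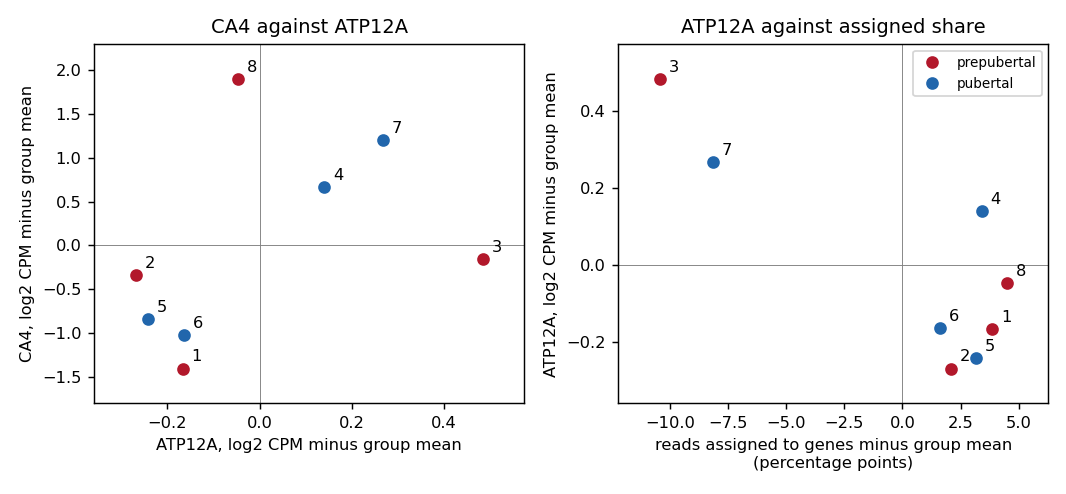
Left, CA4 against ATP12A, each as log2 CPM minus the mean of its group, for the 8 numbered libraries (r = 0.433), where sample 3 is highest in ATP12A with CA4 near its group mean and sample 8 is highest in CA4 with ATP12A near its group mean. Right, ATP12A on the same scale against the share of uniquely mapped reads assigned to genes minus its group mean, in percentage points, where samples 3 and 7 lie apart at the low end.

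Measures of the libraries were set beside both genes in 8 relations, again with group means removed. By the two-sided exact permutation tests, 0 of the 8 had a p under 0.05, before or after Benjamini-Hochberg adjustment over the 8. ATP12A had the closest relation with the share of reads assigned to genes (r = -0.830, exact permutation, p = 0.0573, adjusted p = 0.199, rho = -0.405 with exact permutation p = 0.420). It rested on samples 3 and 7, which were low in this share and high in ATP12A within their groups. In the other 6 libraries r was 0.602, with the opposite sign. The relations of ATP12A with the number of genes with a read (r = 0.762, exact permutation, p = 0.0747, adjusted p = 0.199) and with the reads counted on genes (r = -0.650, exact permutation, p = 0.0625, adjusted p = 0.199) rested on the same libraries and also changed sign without them. Per uniquely mapped read, the r of ATP12A with the assigned share was -0.425 (exact permutation, p = 0.339). With this share as a covariate, the log2 fold change of ATP12A between the groups was -0.58 (standard error 0.14) and that of CA4 -2.66 (standard error 0.78).

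For CA4 the r with the 4 library measures were nearer to 0, from -0.318 for the reads counted on genes (exact permutation, p = 0.524) to 0.243 for the number of genes with a read (exact permutation, p = 0.597). With the share of reads at several loci r was 0.240 (exact permutation, p = 0.609), and without sample 8, which was highest in both, it was -0.713 (exact permutation, p = 0.125).

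The study's list for oxidative phosphorylation holds ATP12A beside 8 genes of the respiratory chain and the mitochondrial ATP synthase. With group means removed, r of ATP12A with them was of both signs. It ranged from -0.308 with CYCS, the electron carrier cytochrome c, to 0.396 with NDUFA13, a subunit of complex I. The median was -0.0604 and 4 of the 8 values were negative. The median r with ATP12A was 0.313 over the 51 other genes of the metabolic list and 0.206 over all tested genes. Without samples 3 and 7 the values spread from -0.955 with CYCS to 0.816 with NDUFA13, and 7 of the 8 were negative. With the 6 libraries without conflict, 4 of 8 were negative. The number of negative values thus depended on the libraries used. The r of ATP12A was 0.0199 with ATP5MF and -0.254 with ATP5PD, which are subunits of the ATP synthase. All 8 respiratory genes had higher means in the pubertal group, while the list of 51 holds genes of both directions. Its other genes with higher pubertal means had r with ATP12A from -0.903 (ETNPPL) to 0.783 (ST6GALNAC2). The part of this direction in the median of the 8 was not tested.

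CA4 had mostly negative r with these genes within groups. Its r was negative for 6 of the 8, with a median of -0.558, against 0.0781 over the 51 other genes of the metabolic list and 0.163 over all tested genes. The lowest values were -0.735 with UQCRC1, a core subunit of complex III, -0.705 with CYCS and -0.653 with ATP5PD. CA4 had r = -0.571 with NDUFS3 and -0.545 with NDUFA3, both of complex I, and -0.177 with ATP5MF. The r of CA4 was 0.0781 with COX17, a copper chaperone of cytochrome c oxidase, and 0.0777 with NDUFA13. For CA4 the median was -0.586 without samples 3 and 7, with 5 of 8 values negative, and -0.525 without sample 8, with 7 of 8 negative. In the 6 libraries without conflict the median was -0.459, with 8 of 8 negative. These correlations over 8 libraries share library depth and scaling, and they carry no test. The 8 genes all had higher means in the pubertal group, while the list of 51 holds genes of both directions. Its other genes with higher pubertal means had r with CA4 from -0.813 (PCK2) to 0.799 (UGP2). KMT5A (-0.729) and PGD (-0.706), also higher in the pubertal group, were among the low ones. The part of this direction in the median of the 8 was not tested.

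**Figure D3:**
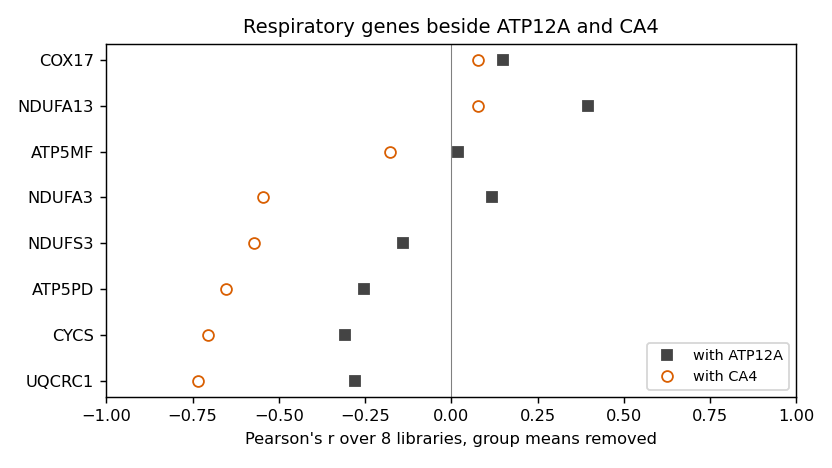
Pearson's r of 8 respiratory chain and ATP synthase genes with ATP12A (squares) and CA4 (circles), from log2 CPM of the 8 libraries with group means removed. Values with ATP12A lie from -0.308 to 0.396, and 6 of the 8 values with CA4 are negative.

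The genes of the metabolic list whose pattern was most like that of ATP12A within groups were ISYNA1, which makes inositol phosphate from glucose phosphate (r = 0.787), the steroid sulfatase STS (r = 0.787) and the sialyltransferase ST6GALNAC2 (r = 0.783). STS had a mean of 11.2 CPM over the prepubertal and 4.80 CPM over the pubertal libraries, ISYNA1 33.6 and 23.4 CPM, and ST6GALNAC2 22.4 and 31.5 CPM. The lowest r with ATP12A were those of ETNPPL, which breaks down phosphoethanolamine (-0.903), of PSPH, the last enzyme of serine synthesis (-0.842), and of the acyltransferase AGPAT5 (-0.817). These last 3 genes had higher means in the pubertal group, with 17.4 and 32.2 CPM for ETNPPL, 36.9 and 52.2 CPM for PSPH and 57.7 and 92.9 CPM for AGPAT5. Samples 3 and 7, the libraries apart in assigned reads, were also apart in some of these genes. ISYNA1 had 44.0 CPM in sample 3 and 28.8 to 31.4 CPM in the other prepubertal libraries, and ST6GALNAC2 had 40.5 CPM in sample 7 and 27.3 to 29.7 CPM in the other pubertal ones. Without samples 3 and 7, a setting added once the values were known, r with ATP12A was 0.806 for STS, 0.551 for ISYNA1 and 0.0835 for ST6GALNAC2, and GMDS (0.988), ALAS2 (0.952) and RDH12 (0.952) were highest instead. At the other end r was -0.777 for ETNPPL, -0.621 for PSPH and -0.784 for AGPAT5, and CYCS was lowest (-0.955). The order of the genes most like ATP12A therefore rested on these libraries. Restricted to the 6 libraries without conflict, r was 0.828 for ISYNA1, 0.807 for STS and 0.842 for ST6GALNAC2, with GMDS highest (0.889), and ETNPPL, PSPH and AGPAT5 were the 3 lowest.

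For CA4 the most similar genes of the list were the acid phosphatase ACP5 (r = 0.842), the retinal reductase RDH12 (r = 0.803) and UGP2, which makes UDP-glucose (r = 0.799). In the prepubertal group ACP5 had 17.4, 24.996, 25.7 and 29.0 CPM in samples 1, 2, 3 and 8, and in samples 4, 5, 6 and 7 it had 17.6, 11.7, 11.8 and 14.5 CPM. Sample 1 was lowest and sample 8 highest of the prepubertal libraries in both ACP5 and CA4, and the range of ACP5 was far narrower. The lowest r with CA4 were those of PCK2, the mitochondrial enzyme that makes phosphoenolpyruvate (-0.813), of UQCRC1 (-0.735) and of KMT5A, which methylates histone H4 (-0.729). PCK2 had 22.9, 16.6, 13.7 and 12.7 CPM in samples 1, 2, 3 and 8 and 20.8, 31.8, 54.3 and 21.0 CPM in samples 4, 5, 6 and 7. It was highest in sample 6, which together with sample 5 was lowest in CA4. Without sample 8, r with CA4 was 0.838 for ACP5, 0.777 for RDH12 and 0.857 for UGP2, but ANPEP (0.963), GPHN (0.897) and ENO1 (0.876) were higher, so the order of the genes most like CA4 rested on sample 8. Restricted to the 6 libraries without conflict, r was 0.845 for ACP5, 0.744 for RDH12 and 0.838 for UGP2, with ENO1 highest (0.974). PCK2 had r = -0.903 with CA4 without sample 8 and -0.891 in the 6 libraries. UQCRC1 and KMT5A had -0.657 and -0.664 without sample 8, and -0.598 and -0.611 in the 6 libraries. In both settings ETNPPL and AGPAT5 stood in their place among the lowest.

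Among all tested genes without a name, ENSBTAG00000021318 was most like ATP12A (r = 0.990), with 4.92 CPM in sample 3 and 2.75 to 3.67 CPM in the other libraries, and ENSBTAG00000014619 most like CA4 (r = 0.984), with 32.3 CPM in sample 8 and 16.3 to 25.1 CPM elsewhere. The opposite ends were ENSBTAG00000038316 for ATP12A (r = -0.959) and ENSBTAG00000015839 for CA4 (r = -0.996). With ATP12A, 161 of the 15512 other genes had an r above 0.9 and 23 below -0.9, and with CA4 84 and 27.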

How the data were processed

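For each library the deposited table holds counts of reads on Ensembl genes, to which the authors applied no normalization. Reads were trimmed with Flexbar, mapped to ARS-UCD1.2 with STAR and counted with HTSeq-count. Whether counting used strand or molecular identifiers is not given in the sources used here. Intervals take each read as independent, so they cover at most counting error and may be too narrow. Rows for reads outside genes, ambiguous reads and reads at several loci were kept out of library sizes. Reads at several loci were not counted on genes.

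Identifiers were paired with symbols through the study's list of 52 genes. The reference table (ARS-UCD2.0) has 0 Ensembl identifiers, so planned lists of acid-base genes and of lineage, cumulus and sperm markers were not analysed here, nor were protein sequences. By symbol, this table shows no other gene overlapping ATP12A, next to RNF17, or CA4, between USP32 and ZNHIT3.

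Models without covariate were fitted with edgeR 4.0.16 under R 4.3.3, using TMM scaling, its filterByExpr filter and glmQLFit. DESeq2 1.42.0 served as an alternative. CPM used gene counts alone, and log2 CPM a prior count of 2. The standard error of a fold change was derived from its quasi-likelihood F value. Correlations with group means removed used all permutations within groups, 576 with 8 libraries and fewer where libraries were left out, with Python 3.11.15. Both steps were tested on simulated data. Libraries of the same group differed by more than the Poisson noise of independent reads and were kept as replicates.

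The groups of samples 4 and 8 follow the study's tables against the labels. The members, the lists and the named genes (the 3 highest and 3 lowest r of the list, the 8 respiratory genes and unnamed extremes) were chosen with earlier results of these data known.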

Additional observations from a re-analysis of the deposited data

Results flagged for a closer look

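CA4 in sample 8 (12.2 CPM) lay farther from the other prepubertal libraries than Dixon's 95% limit for 4 values allows (ratio of gap to range 0.845). On the log2 CPM scale the ratio was 0.622, inside the limit, so this call depends on the scale. The same limit was passed by the share of mapped reads at several loci in sample 8 (17.2%). It was also passed in sample 3 by the reads counted on genes (20112044), the share of uniquely mapped reads assigned to genes (45.4%) and the number of genes with a read (24203), and in sample 7 by the assigned share (52.1%). Chance flags about 1 group in 20. ATP12A passed the limit in neither group, with sample 3 nearest to it at a ratio of gap to range of 0.757.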

How the results depend on the processing

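The log2 fold change of ATP12A kept its sign in all 19 alternatives, from -0.83 without sample 2 to -0.46 with the labels' groups, and with single libraries left out it stayed between -0.83 and -0.58. That of CA4 kept its sign in 17 of 18, with single libraries left out from -3.14 to -1.54, and was 0.92 with the labels' groups. CA4 has no value where 10 counts were asked of every library. The r of the pair within groups was positive in all 16 alternatives. With the group means of the sample labels it was 0.812, which has no test, since these means leave 75% of the contrast between the tables' groups, on which both genes were chosen. In the other 15, p lay between 0.0694 and 0.618 (exact permutation). The number of genes whose groups do not overlap, 820 of 15513, was 2613 in the 6 libraries without conflict and 1830 without samples 3 and 7, both settings with fewer libraries and chosen after the data were seen. No relation with a library measure reached an adjusted p under 0.05 in the 10 alternatives with the tables' group means removed (exact permutation). Where 1 library was left out, the permutations were too few for a single relation to pass this limit, so those alternatives decide little. Before adjustment, exact permutation p was under 0.05 for ATP12A with genes with a read (0.0434 with TMM factors, 0.0486 without sample 4 and 0.0486 without sample 5). Signs changed for ATP12A with reads at several loci (r = 0.0938 without centring and 0.284 with the labels' means, both of which leave the contrast between the groups, or part of it, in the values). With single libraries left out, the r of CA4 ranged from -0.637 (without sample 8) to 0.216 (without sample 7) with reads counted on genes and from -0.618 to 0.158 with the assigned share, leaving out the same libraries. It ranged from -0.131 (without sample 7) to 0.579 (without sample 8) with genes with a read, and from -0.713 (without sample 8) to 0.651 (without sample 7) with reads at several loci, so that each of these signs turned on 1 library. Depth limits CA4, which had 8 and 7 reads in samples 5 and 6.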
